A study of Mus musculus with 6 samples.

Results

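Complex I, the NADH:ubiquinone oxidoreductase of the inner mitochondrial membrane, takes electrons from NADH, passes them along a chain of iron-sulfur clusters to ubiquinone and pumps protons. It is built from an N module that oxidises NADH, a Q module that reduces ubiquinone and a membrane arm that moves protons, and it joins core subunits encoded in the nucleus and in mitochondrial DNA with many supernumerary subunits, helped by assembly factors that are absent from the finished enzyme. The mouse oocyte supplies its mitochondria to the embryo, and the cleaving embryo relies on pyruvate oxidation before it turns to glucose. The genes described here are the nuclear protein-coding genes whose symbol starts with Nduf, without those named as pseudogenes. They numbered 46 of the 48967 genes to which exonic parts could be assigned. Another 5 Nduf symbols were left out because the annotation does not class them as protein coding.

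RNA was measured in 2-cell embryos of the strain F1 (C57Bl/10 X CBA/H), genotype wt, cultured from the zygote in KSOM without fatty acids and collected, according to the labels, at 2.0 dpc (day 2), in 3 control and 3 delipidated libraries. The description of the experiment counts from delipidation instead and may put collection earlier, so the time is uncertain. Delipidated embryos had been centrifuged as zygotes in cytochalasin B, a blocker of actin polymerisation, first in plain and then in hyperosmotic medium, and the lipid droplets were aspirated through an opening in the zona pellucida. Control embryos were cultured from the zygote, and cytochalasin B, centrifugation and biopsy are not stated for them, so removal of lipid and the handling that goes with it cannot be told apart. Each library was made from a pool of 3 embryos, drawn from embryos of several females that had been mixed and allotted at random, so replicates are separate pools of embryos.

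Exonic-part counts per library summed to 12480952, 16582054 and 13318885 in the control libraries and to 20571131, 16762489 and 15066302 in the delipidated libraries. Genes with a count numbered 22855, 22437 and 20582 in control and 17091, 19408 and 20158 in delipidated embryos. Every delipidated library thus detected fewer genes than every control library, although delipidated 1 held the largest total; the part of this difference in the values below was not tested. Of the 11 genes listed as markers of genome activation at the 2-cell stage, 10 were found, and all 10 were counted in every library. All 12 oocyte markers were counted in every library as well.

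Levels are given as CPM, the count of a gene scaled to a common library size after TMM normalisation. Counts of genes listed as markers of other cells were present in all libraries. The 12 markers of cumulus and granulosa cells summed to 4.98, 14.6 and 66.0 CPM in control and 10.3, 9.58 and 12.7 CPM in delipidated embryos. Their most abundant gene, Cyp11a1, had 653 of its counts in control 3, and Foxl2 and Ptx3 had 0 counts in all libraries. The 8 leukocyte markers summed to 14.8, 10.9 and 10.5 CPM in control and 6.67, 8.66 and 6.21 CPM in delipidated embryos, without overlap between the groups, and Coro1a led them. Coro1a itself overlapped, at 6.33, 3.75 and 3.19 CPM in control and 0, 5.16 and 1.91 CPM in delipidated embryos. Among the 4 tested leukocyte markers, the log2 fold change was above 0 for Cd52, at 0.87, and below 0 for 3. The 8 stromal markers summed to 12.8, 15.2 and 10.9 CPM in control and 1.93, 14.7 and 18.9 CPM in delipidated embryos, with Postn as the most abundant. Of the 4 stromal markers that were tested, the log2 fold change was above 0 for Postn, at 0.46, and below 0 for the other 3. Among these Col1a1, chosen after its values were seen, had 11, 26 and 42 counts in control and 0 in each delipidated library. Among the 7 oviduct markers Epcam held nearly all counts, at a mean of 145 CPM, above every nuclear complex I member, and the list summed to 82.8, 227 and 113 CPM in control and 165, 195 and 111 CPM in delipidated embryos, while Wfdc2 was at 0 in all libraries. Cumulus cells had been stripped from the zygotes with hyaluronidase and washing. Whether these counts come from other cells or from the embryos, and their part in the results, was not tested.

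Complex I genes as a group were at a like level in both groups of embryos, and no member passed the test. Their summed level was 496, 516 and 608 CPM in the control libraries and 536, 499 and 497 CPM in the delipidated libraries, or 540 ± 59.8 against 511 ± 21.9 CPM (SD, n = 3 each). Control 3 was highest and control 1 lowest, with all delipidated libraries between them. CPM is relative to the library, so a change in the total RNA of an embryo would not show in these levels.

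Of the 46 members, 40 passed the filter on low counts and were tested among 16020 genes. At a Benjamini-Hochberg adjusted p under 0.05 and a log2 fold change beyond 1 in the quasi-likelihood test of edgeR, 0 of the 40 members and 0 of all tested genes (0%) were called. At an unadjusted p under 0.05, 0 members were higher in delipidated embryos against 184 of all tested genes (1.15%), and 1 member was lower against 279 (1.74%). The adjusted p of edgeR was 1.00 for each of the 40 members. DESeq2 without a filter beforehand called 9 genes higher and 40 lower among 30967 genes with a count. None of these was a member, and limma-voom called 0. The default filters of DESeq2 itself were left on, so not every gene had a p in that test, and Ndufa3 had none. By non-overlap of the groups, 1 of 40 members had all delipidated libraries above all control libraries against 3.81% of all tested genes, and 3 of 40 had them below against 5.05%. These shares are near those of all tested genes. An exact two-sided permutation test of 3 against 3 libraries cannot give a p below 0.1.

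The median log2 fold change of the 40 tested members, delipidated over control, was 0.03 beside -0.00 for all tested genes. It was above 0 for 21 members and below 0 for 19, beside 8004 and 8016 of all genes. Single members ranged from -1.49 (Ndufaf8) to 2.48 (Ndufa1), and 23 of 40 (57.5%) lay within 0.5 of 0, as did 62.9% of all genes. The standard error (SE) of a member's log2 fold change had a median of 0.60, close to the 0.59 of all tested genes. The coefficient of variation between libraries had a median over members of 0.427 in control and 0.441 in delipidated embryos, beside 0.369 and 0.421 for all tested genes.

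**Figure D1:**
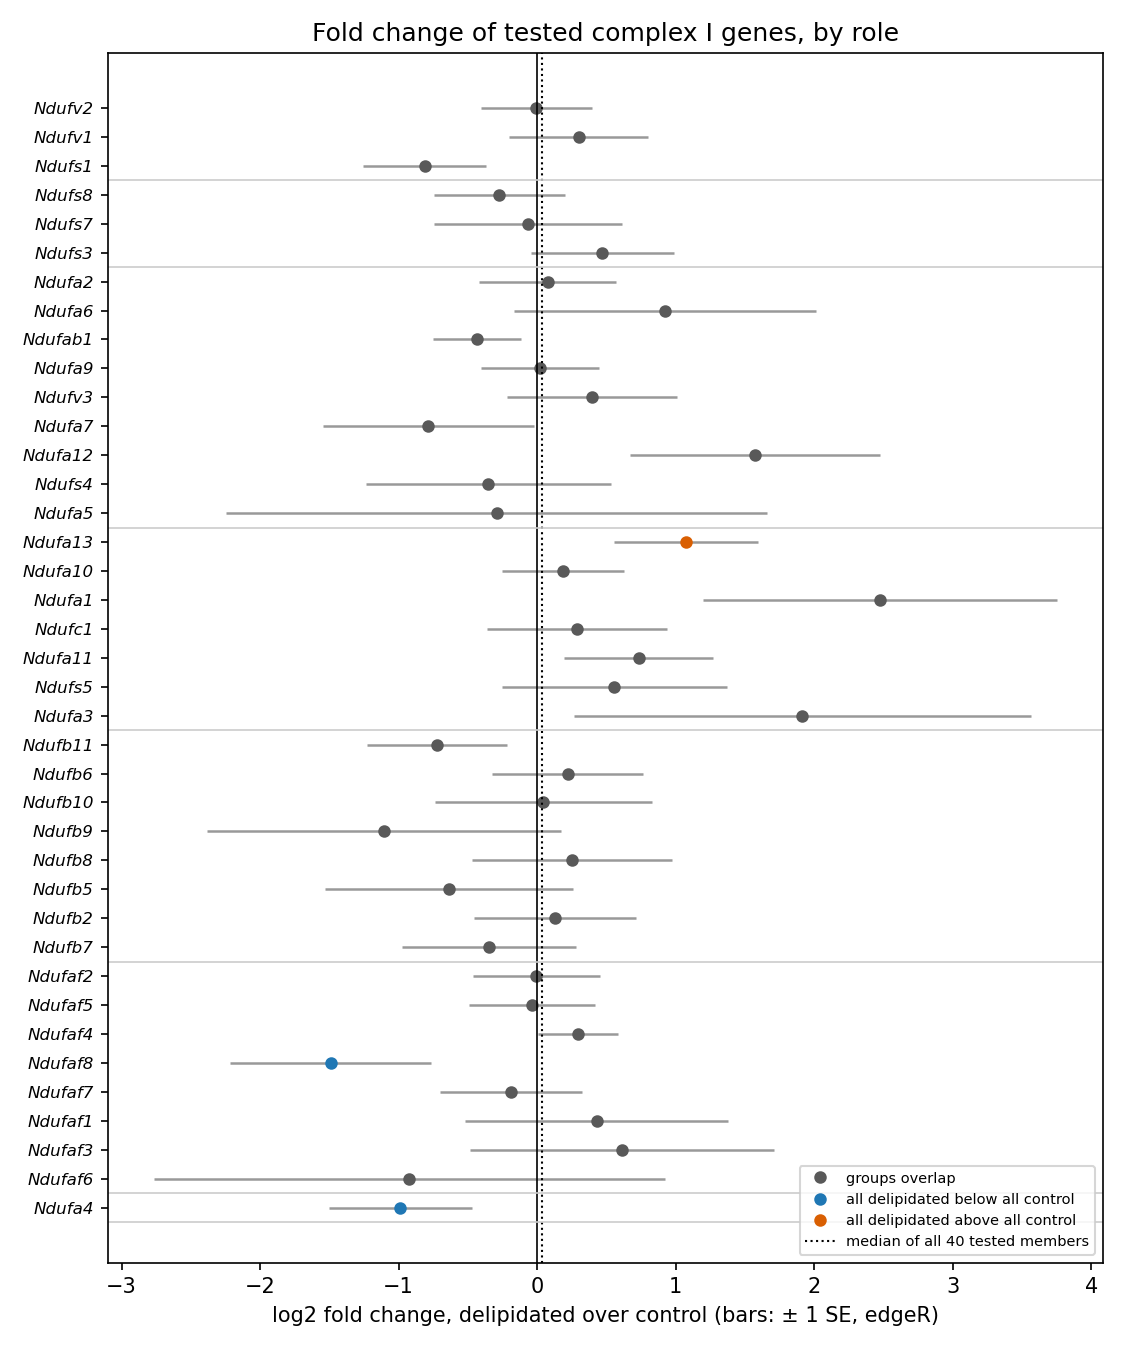
Log2 fold change (delipidated over control, horizontal axis) of 39 tested complex I genes, ordered by role from the N module at the top to Ndufa4 at the bottom; bars are ± 1 SE from edgeR, and colour shows whether the 3 delipidated libraries lie all above or all below the 3 control libraries. The dotted line is the median of 0.03 over all 40 tested members. Among the genes drawn, Ndufaf8 and Ndufa4 on the left and Ndufa13 on the right are without overlap.

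The N module core subunits sit at the tip of the peripheral arm. Ndufs1, the large subunit that carries several of the iron-sulfur clusters, was at 22.8, 38.5 and 57.0 CPM in control and 12.3, 28.4 and 26.6 CPM in delipidated embryos. Delipidated 1 was the lowest library and control 3 the highest, but control 1 fell below 2 of the delipidated libraries, so the groups overlapped. The log2 fold change was -0.81 (SE 0.44), and without control 3 it was -0.45. Ndufv1, which binds FMN and NADH, was at 7.93, 21.2 and 20.1 CPM in control and 30.5, 13.0 and 17.1 CPM in delipidated embryos. Its lowest value was in control 1 and its highest in delipidated 1. Ndufv2, the partner of Ndufv1 with an iron-sulfur cluster of its own, was at 31.3, 20.1 and 24.5 CPM in control and 30.7, 29.7 and 15.04 CPM in delipidated embryos, with full overlap and a log2 fold change of -0.01.

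The Q module is where ubiquinone is reduced. Its core subunit Ndufs3 was at 7.26, 8.65 and 6.84 CPM in control and 8.84, 8.11 and 14.6 CPM in delipidated embryos, with delipidated 3 the highest. Ndufs7, which holds the last iron-sulfur cluster before ubiquinone, was at 4.56, 15.4 and 3.88 CPM in control and 7.51, 10.7 and 4.59 CPM in delipidated embryos, so that control 2 alone stood above the delipidated range. Ndufs8, an iron-sulfur subunit that bridges the clusters, was at 10.1, 13.4 and 25.2 CPM in control and 15.3, 12.6 and 12.4 CPM in delipidated embryos. Control 3 was its highest library, and the remaining 5 lay close together. Log2 fold changes of these 3 subunits were 0.47, -0.06 and -0.27. That of Ndufs7 was 0.85 without control 2, and its sign also turned under limma-voom, under the replicate block and without delipidated 3. Of the 4 tested genes listed as core of the Q module, 1 had a log2 fold change above 0 and 3 below, with a median of -0.17. Their summed level was lower in every delipidated library than in every control library. Ndufs3, Ndufs7 and Ndufs8 each overlapped between the groups, so the separation of the sum does not hold for each subunit singly. This sum was not tested, and 0 of the 4 genes were called.

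Among the 10 supernumerary subunits of the N and Q modules, 9 were tested, 5 with a log2 fold change above 0 and 4 below, with a median of 0.02. Their summed level was 112, 103 and 144 CPM in control and 109, 112 and 112 CPM in delipidated embryos, a spread in which only control 3 stands apart. The smallest unadjusted p of this list belonged to Ndufa12, a subunit of the peripheral arm that takes the place of Ndufaf2 late in assembly. Ndufa12 was at 0.675, 3.99 and 1.14 CPM in control and 3.75, 9.09 and 4.59 CPM in delipidated embryos. Control 2 reached above delipidated 1, and the log2 fold change was 1.57 (SE 0.90). Without control 2 it was 2.67. Ndufab1, the mitochondrial acyl carrier protein, which serves both complex I and mitochondrial fatty acid synthesis, was at 65.6, 39.4 and 71.9 CPM in control and 37.7, 40.1 and 53.2 CPM in delipidated embryos. Control 2 lay inside the delipidated range, and the log2 fold change was -0.43 (SE 0.32). Ndufa6 was at 5.99, 0.0605 and 5.78 CPM in control and 10.9, 2.52 and 9.04 CPM in delipidated embryos, so control 2 stood far below the other control libraries. Ndufa7 was at 7.09, 9.25 and 8.06 CPM in control and 9.73, 3.26 and 1.13 CPM in delipidated embryos, and delipidated 1 exceeded every control library while the other delipidated libraries lay below. The log2 fold change of Ndufa7 was -0.78 (SE 0.76), and it was -1.88 without delipidated 1. Of the counts of Ndufab1, 20.9% lay in parts shared with Gm44986 on the opposite strand.

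All 7 tested members among the 9 supernumerary subunits of the proximal membrane arm had a log2 fold change above 0, with a median of 0.73, and 0 of them passed the test or had an unadjusted p under 0.05. Their summed level was 46.1, 42.5 and 56.4 CPM in control and 83.2, 55.0 and 82.3 CPM in delipidated embryos. Delipidated 2 lay below control 3, so the groups overlapped. Without delipidated 1, the log2 fold changes of Ndufa3, Ndufc1 and Ndufs5 turned to -3.35, -0.28 and -0.20, and without delipidated 3 that of Ndufa10 turned to -0.25. The sign of Ndufa3 also turned under limma-voom and under the replicate block, so the shared direction of these 7 genes was not kept throughout.

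Ndufa13, also known as GRIM-19, a subunit that spans the membrane near the base of the peripheral arm, was at 5.82, 4.29 and 6.39 CPM in control and 13.1, 10.8 and 10.9 CPM in delipidated embryos. It was the only tested member with all delipidated libraries above all control libraries. The means were 5.50 ± 1.08 and 11.6 ± 1.30 CPM (SD, n = 3 each), and the log2 fold change was 1.08 (SE 0.52, edgeR adjusted p = 1.00). The gene (ENSMUSG00000036199, chr8:69894180-69902558, reverse strand, GRCm38) has 5 exonic parts. The delipidated mean was the higher in all 5, and in 2 of them the groups did not overlap. Reads that span several parts are counted in each, so parts are not independent of one another. Counts in the part shared with Tssk6 on the opposite strand made up 11.1%. That part is also the longest. On it alone the log2 fold change of Ndufa13 was 0.21 (SE 1.50), and without it 1.198 (SE 0.60).

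Ndufa1, a small X-linked subunit of the membrane arm, was at 1.35, 0.121 and 0.684 CPM in control and 0.543, 3.93 and 7.55 CPM in delipidated embryos. Delipidated 1 lay inside the control range while the other delipidated libraries were above it. Its log2 fold change of 2.48 carried an SE of 1.28, and it ranged from 1.63 (without delipidated 3) to 3.32 (without control 1) when each library was left out. Ndufa3 was at 0.506, 1.69 and 1.22 CPM in control and 12.7, 0 and 0.212 CPM in delipidated embryos, so that delipidated 1 alone held the high value and the remaining delipidated libraries lay below every control library. Ndufa10 was at 20.3, 16.8 and 21.7 CPM in control and 12.4, 20.5 and 33.9 CPM in delipidated embryos, with the control range inside the delipidated range.

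In the distal membrane arm, 8 of the 10 supernumerary subunits were tested, 4 with a log2 fold change above 0 and 4 below, with a median of -0.15. The list summed to 83.0, 91.2 and 80.0 CPM in control and 81.5, 72.0 and 61.6 CPM in delipidated embryos. Ndufb11, an X-linked subunit, was at 14.3, 21.7 and 25.8 CPM in control and 5.43, 16.8 and 15.2 CPM in delipidated embryos. Delipidated 1 was far below the others, and control 1 lay below the other delipidated libraries. Its log2 fold change was -0.72 (SE 0.51). The gene overlaps Rbm10 on the opposite strand, and 59.3% of its counts lay in the shared part. Without that part the log2 fold change was -1.17, and without delipidated 1 it was -0.36. Ndufb9 was at 3.12, 4.90 and 5.24 CPM in control and 0, 4.18 and 1.98 CPM in delipidated embryos, and its log2 fold change was -1.11 (SE 1.28). It was -0.52 without delipidated 1 and -2.17 without delipidated 2. Ndufb10 was at 8.94, 14.5 and 13.4 CPM in control and 28.4, 7.92 and 1.55 CPM in delipidated embryos. Its highest and its lowest library were both delipidated, and the log2 fold change turned from 0.04 to -1.37 without delipidated 1. Ndufb5 spread widely inside the control group alone, at 28.9, 7.14 and 0.988 CPM, beside 4.39, 8.23 and 11.2 CPM in delipidated embryos.

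The 8 assembly factors Ndufaf1 to Ndufaf8 were all tested, 3 with a log2 fold change above 0 and 5 below, with a median of -0.02. They summed to 123, 118 and 147 CPM in control and 139, 134 and 131 CPM in delipidated embryos. Ndufaf8, which stabilises Ndufaf5, was at 6.33, 8.28 and 6.84 CPM in control and 1.78, 4.36 and 1.48 CPM in delipidated embryos. Every delipidated library was below every control library. The means were 7.15 ± 1.01 and 2.54 ± 1.58 CPM (SD, n = 3 each), and the log2 fold change was -1.49 (SE 0.73, edgeR adjusted p = 1.00). This log2 fold change ranged from -2.13 (without delipidated 2) to -1.22 (without delipidated 3) when each library was left out. All 7 exonic parts of Ndufaf8 with a count had the lower mean in delipidated embryos, and 44.7% of its counts lay in a single part. The gene is ENSMUSG00000078572 on the forward strand at chr11:120098928-120100705 (GRCm38).

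Ndufaf5, the hydroxylase that modifies Ndufs7, was itself at 15.4, 21.7 and 46.3 CPM in control and 36.0, 25.1 and 20.05 CPM in delipidated embryos. The control range enclosed the delipidated range, and the log2 fold change was -0.04. Ndufaf7, a methyltransferase, was at 9.45, 19.0 and 11.6 CPM in control and 14.9, 13.7 and 6.57 CPM in delipidated embryos, again with overlap.

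Ndufaf4, an assembly factor that acts on the Q module together with Ndufaf3, had the smallest SE of the members. It was at 46.2, 42.6 and 66.8 CPM in control and 54.7, 63.9 and 72.3 CPM in delipidated embryos. Control 3 lay between delipidated 2 and delipidated 3, and the log2 fold change was 0.30 (SE 0.29). Ndufaf3 was at 2.28, 1.15 and 1.14 CPM in control and 4.20, 1.78 and 0.988 CPM in delipidated embryos. Ndufaf2, the paralogue of Ndufa12 that holds its place during assembly, was at 40.9, 18.02 and 12.9 CPM in control and 23.4, 20.9 and 27.3 CPM in delipidated embryos. The delipidated libraries lay inside the wide control range. Ndufaf1 was at 1.60, 2.96 and 1.60 CPM in control and 2.07, 3.99 and 2.26 CPM in delipidated embryos, and Ndufaf6 was at 0.844, 3.99 and 0 CPM in control and 1.98, 0.553 and 0 CPM in delipidated embryos. Both overlapped between groups.

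Ndufa4 keeps a complex I symbol although its protein is now placed in cytochrome c oxidase. It was at 17.0, 19.7 and 17.9 CPM in control and 3.90, 13.6 and 10.1 CPM in delipidated embryos. The control libraries lay close together and above every delipidated library, with delipidated 1 the lowest. The log2 fold change was -0.99 (SE 0.52, edgeR adjusted p = 1.00), and it was -0.62 without delipidated 1. The gene (ENSMUSG00000029632, chr6:11900292-11907497, reverse strand, GRCm38) has 16 exonic parts. Of the 13 with a count, 11 had the lower mean in delipidated embryos and 2 the higher.

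The 6 members that did not pass the filter had few counts or had most of them in 1 library. Ndufa4l2, a paralogue of Ndufa4 known to be induced by hypoxia, had 0 counts in all 6 libraries; 0 counts allow up to 3 counts, or 0.148 to 0.253 CPM depending on the library, for counting error only. Ndufc2 had 2 counts, both in delipidated 3. Ndufs6 had 0, 24 and 10 counts in control and 0 in each delipidated library, and its pseudogene Ndufs6b had 5, 8 and 0 counts in control and 0, 0 and 1 in delipidated embryos. Control 1 at 0 counts lay with the delipidated libraries, so Ndufs6 does not separate the groups.

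Ndufb4 had 0, 4 and 61 counts in control and 0, 0 and 3 in delipidated embryos, nearly all of them in control 3. Ndufa8 had 13, 10 and 6 counts in control and 40, 0 and 0 in delipidated embryos, and Ndufb3 had 3, 6 and 14 in control and 68, 0 and 3 in delipidated embryos, in both cases with most counts in delipidated 1. Over all 46 members and 6 libraries, 27 of 276 values were 0, of which 10 were in control and 17 in delipidated libraries. Among the 45 members with a count in any library, 5.19% of the control values and 10.4% of the delipidated values were 0, beside 16.9% and 25.5% for the 18547 protein-coding genes with a count in any library, so an excess of zeros in delipidated embryos was not particular to the members. Of the Nduf symbols outside the 46 members, Ndufa11b had 1 count, Ndufab1-ps 1, Ndufb4c 2 and Ndufs6b 14 over all libraries. Ndufb1-ps had 0 exonic parts assigned, so it was not measured.

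Levels are compared between genes per length, here as CPM per kb of summed exonic part averaged over the 6 libraries. Because reads that span several parts are counted in each, the summed counts and the levels per length can be too high in genes with many short parts, and by how much was not tested. Ndufa3 in delipidated 1, for example, had 43 counts in each of 6 adjacent parts, which made up all of its 258 counts there. The order of genes by level is uncertain for this reason. The median over the 46 members was 4.93 CPM per kb, with quartiles at 1.93 and 8.04. Over the 13096 tested protein-coding genes the median was 3.95, with quartiles at 1.10 and 14.2. The 46 include members that did not pass the filter, and over the 40 tested members alone the median was 5.33. Of the 46 members, 36 had a count in every library. The highest was Ndufaf2 at 35.2 ± 14.2 CPM per kb (SD over 6 libraries), followed by Ndufa2 at 26.5 ± 9.29, Ndufb11 at 18.2 ± 7.67, Ndufs8 at 15.4 ± 5.54 and Ndufaf5 at 15.3 ± 6.46. Neighbours in this order differ by less than the larger of their SDs. These 5 genes held 36.0% of the per-length sum of all members. The order depends on the length used. On the longest exonic part alone Ndufb11 was first at 17.4 CPM per kb, ahead of Ndufa2 at 16.4 and Ndufaf2 at 14.5, and Ndufaf5 fell to place 11. For Ndufb11 and Ndufa2 this longest part is the one shared with Rbm10 or Tmco6 on the opposite strand, so their places on this scale rest on reads whose strand cannot be told. Over the length of the principal transcript, an alternative chosen after seeing the data, Ndufaf2 and Ndufa2 stayed first at 35.3 and 26.5 CPM per kb, followed by Ndufa11 at 25.1, Ndufaf5 at 23.5 and Ndufa4 at 22.5.

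At the low end, among members with a count in every library, were Ndufaf3 at 1.06 ± 0.670, Ndufb7 at 1.33 ± 0.439, Ndufaf1 at 1.61 ± 0.615, Ndufb2 at 1.90 ± 0.786 and Ndufb5 at 2.03 ± 1.96 CPM per kb (SD over 6 libraries). The low places of Ndufb7 and Ndufb5 go with long summed parts, of 4522 and 4995 bases against principal transcripts of 623 and 1079 bases. Over the principal transcript they were at 9.67 and 9.39 CPM per kb, above the median of 8.27 over the members, while Ndufaf3, Ndufaf1 and Ndufb2 were still among the 5 lowest at 1.29, 1.66 and 2.39. In the N module, Ndufv2 was at 12.7, Ndufv1 at 7.25 and Ndufs1 at 3.83 CPM per kb of summed parts, but at 14.9, 11.01 and 11.6 CPM per kb of principal transcript, where the differences are smaller than the SDs over 6 libraries of 3.89, 4.63 and 5.76. In the Q module Ndufs8 was at 15.4, Ndufs7 at 4.52 and Ndufs3 at 4.16 CPM per kb of summed parts, and at 14.7, 7.90 and 8.65 CPM per kb of principal transcript.

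**Figure D2:**
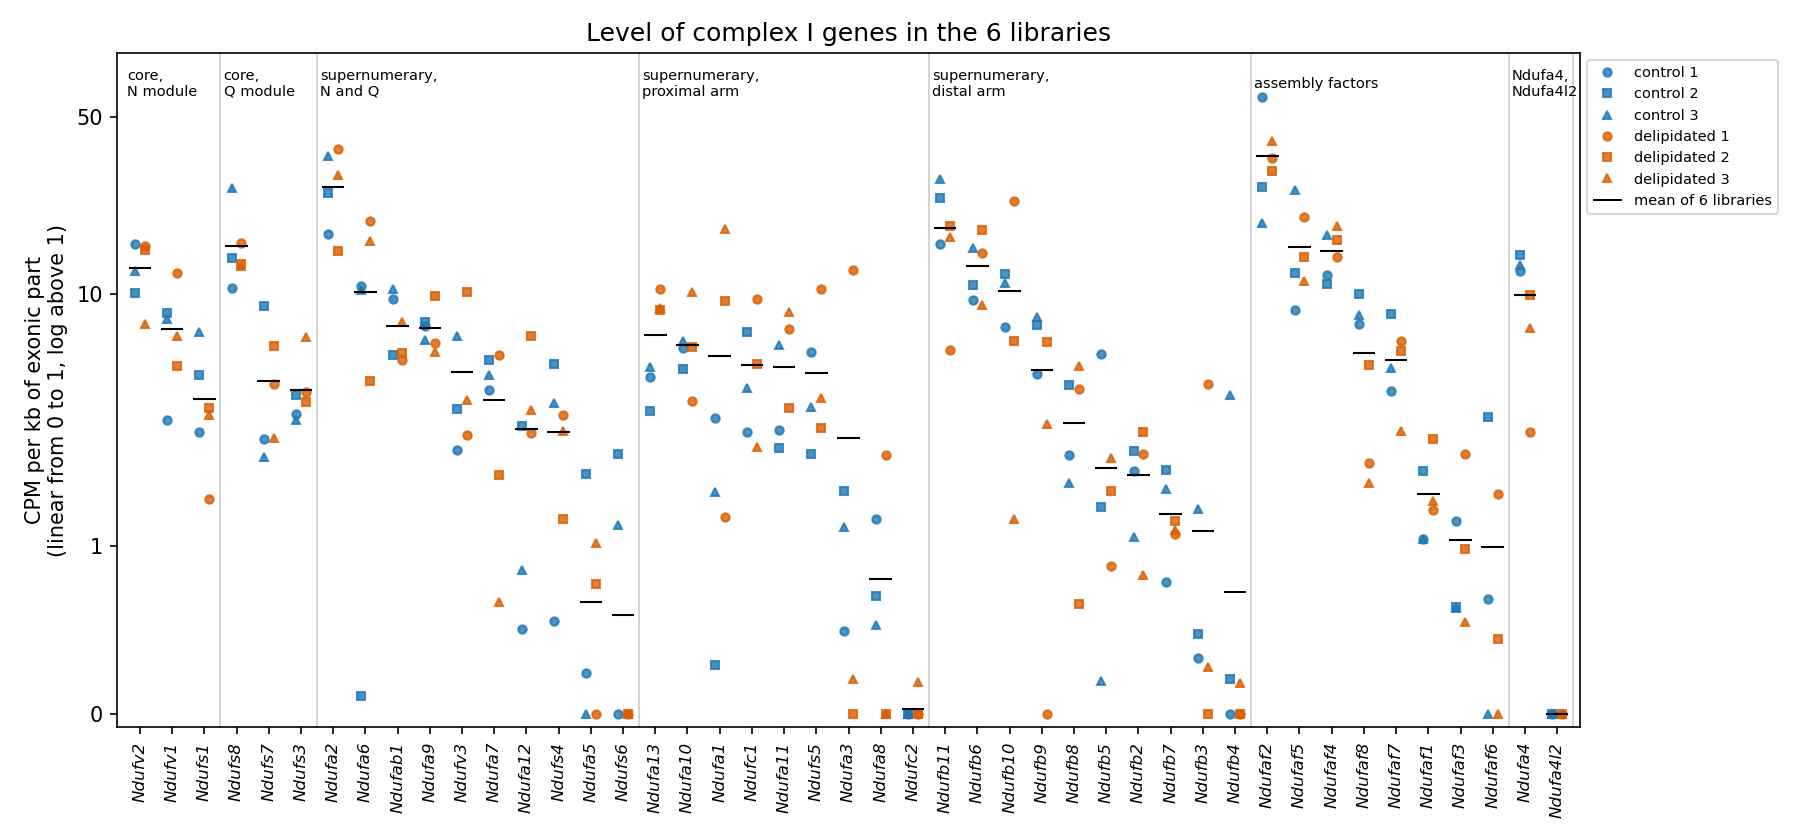
Level of 45 complex I genes in CPM per kb of exonic part (vertical axis, linear from 0 to 1 and logarithmic above 1) in the 3 control and the 3 delipidated libraries, grouped by role; points are libraries and the bar is the mean of 6. Ndufaf2 at 35.2 and Ndufa2 at 26.5 lead, and Ndufa4l2 lies at 0 in all libraries.

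Members were spread over the genome, with 6 of 46 on chromosome 17 as the most on any chromosome. Some share sequence or place with other genes. Parts that occupy the same place on opposite strands had the same counts (median ratio 1 over 11 pairs with at least 10 counts), so reads of the 2 strands cannot be told apart there. Other parts overlap a part on the opposite strand wholly or only partly. Shares of counts in parts with any such overlap were 59.3% for Ndufb11 (Rbm10), 35.4% for Ndufa2 (Tmco6) and 30.2% for Ndufb2 (Braf and Gm16272). They were 24.1% for Ndufs3 (Kbtbd4), 20.9% for Ndufab1 (Gm44986) and 17.7% for Ndufb6 (Smim27). Levels of these genes are uncertain up to that extent. Ndufb2 and Ndufb8 were listed only jointly with neighbouring genes, Ndufb2 with Gm42420 and Adck2 and Ndufb8 with Gm20538 and Sec31b. From those joint entries 17 of 41 parts went to Ndufb2 and 22 of 54 to Ndufb8. Pseudogene transcripts with at least 95% identity over at least 50% of the principal transcript were found for 3 of 46 members, Ndufb11, Ndufs3 and Ndufs6. The best match of Ndufs3 was Gm12251 at 98.6% identity, and that of Ndufs6 was Ndufs6b at 96.6%, so counts of these genes are uncertain.

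Mitochondrial DNA encodes the remaining 7 core subunits, which form the proton channels of the membrane arm and the entry of the ubiquinone site. The mt-Nd genes summed to 7173, 7284 and 11106 CPM in control and 10404, 10726 and 9014 CPM in delipidated embryos. Control 3 was the highest library and the other control libraries were the lowest, so the groups overlapped. All 7 were tested, with log2 fold changes above 0, a median of 0.21 and 0 calls. Ratios of their sum to the sum of the 46 nuclear members were 14.5, 14.1 and 18.3 in control and 19.4, 21.5 and 18.1 in delipidated embryos. In this ratio control 3 fell within the delipidated range, so the groups overlapped.

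Per length, mt-Nd5 was at 2015, mt-Nd6 at 1810, mt-Nd1 at 1659, mt-Nd2 at 1648 and mt-Nd4 at 1002 CPM per kb, whereas mt-Nd3 was at 7.93 and mt-Nd4l at 7.40 CPM per kb. At these values the last pair lay in the range of nuclear members. Only unique reads were counted in the study, and copies of mt-Nd genes elsewhere in the genome were not searched. Whether reads of this pair were lost in mapping was not tested, so its levels are uncertain. Strands could not be told apart in the parts compared above. The levels per length, that of mt-Nd6 among them, may thus hold reads of the opposite strand, which was not tested. The log2 fold change of mt-Nd5, which had the smallest unadjusted p of the 7, was 0.29 (SE 0.17). Its values were 2916, 2802 and 4210 CPM in control and 4194, 4317 and 3613 CPM in delipidated embryos, with control 3 above delipidated 1 and 3. For mt-Nd1, mt-Nd2, mt-Nd4 and mt-Nd6 the log2 fold changes were 0.19, 0.21, 0.19 and 0.24, and for mt-Nd3 and mt-Nd4l 0.00 and 0.31.

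Assembly factors of complex I outside the Nduf symbols were found for 11 of 12 listed genes, and all 11 were tested, 8 with a log2 fold change above 0 and 3 below, with a median of 0.27 and 0 calls. They summed to 70.3, 105 and 80.3 CPM in control and 124, 99.2 and 75.7 CPM in delipidated embryos. Acad9, a relative of the acyl-CoA dehydrogenases that acts in complex I assembly, was at 2.19, 4.48 and 11.4 CPM in control and 23.4, 6.76 and 8.89 CPM in delipidated embryos. Delipidated 1 was the highest, and control 3 exceeded the other delipidated libraries (log2 fold change 1.11, SE 0.71). Tmem126b, its partner in the same assembly complex, was at 0.759, 1.57 and 1.60 CPM in control and 2.57, 2.21 and 3.67 CPM in delipidated embryos, without overlap and at low counts (log2 fold change 1.10, SE 1.02).

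Iron-sulfur cluster synthesis, which supplies the cofactors of the N and Q modules, was represented by 15 tested genes of 16 listed, 8 with a log2 fold change above 0 and 7 below, with a median of 0.02 and 0 calls. Nfu1, which delivers clusters to complex I and other enzymes, was at 67.5, 50.4 and 84.2 CPM in control and 111, 63.4 and 105 CPM in delipidated embryos. Delipidated 2 lay inside the control range (log2 fold change 0.47, SE 0.30). Bola1 was at 12.1, 12.9 and 8.89 CPM in control and 21.2, 12.3 and 14.2 CPM in delipidated embryos, with an overlap through delipidated 2.

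Promoters of 40 members, from 250 bases before to 50 bases after the start, were found in RefSeq (GRCm38.p6) and searched on both strands for 6 motifs, among them those of NRF1, GABP and YY1, which are known from genes of oxidative phosphorylation. The core of the NRF1 motif, GCGCATGC, was in 5 of 40 (12.5%) beside 3.94% of 17492 protein-coding genes. The ETS motif bound by GABP, CCGGAAG, was in 6 (15%) beside 12.9%, the GC box GGGCGG in 21 (52.5%) beside 49.2%, and the E box CACGTG in 2 (5%) beside 8.91%. TATAAA was in 4 (10%) beside 14.8%. AAGATGGC, part of the YY1 motif, was in 8 (20%) beside 3.57%, in each case at or after the start and not wholly upstream of it; these letters hold an ATG, and whether that is the start codon was not examined. A match describes the letters and is not a site. Members with the NRF1 core were Ndufa11, Ndufa6, Ndufa8, Ndufaf4 and Ndufaf5, with log2 fold changes of 0.73, 0.93, 0.30 and -0.04 for the 4 that were tested. Upstream stretches of 3 of them are given 5′ to 3′ to show the motif in its context, with the NRF1 core, or its pair of overlapping copies on both strands, in capitals. They lie at chr17:56717676-56717737 (forward strand) for Ndufa11, chr15:82354341-82354400 (reverse strand) for Ndufa6 and chr4:24897944-24898005 (forward strand) for Ndufaf4.
Ndufa11: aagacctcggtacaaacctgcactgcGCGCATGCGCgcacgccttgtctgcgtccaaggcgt
Ndufa6: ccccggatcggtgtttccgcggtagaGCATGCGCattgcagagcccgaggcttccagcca
Ndufaf4: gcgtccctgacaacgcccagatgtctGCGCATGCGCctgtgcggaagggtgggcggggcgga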

How the data were processed

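Embryos were processed directly to stranded total RNA libraries with rRNA depletion and sequenced as read pairs. The submitters' processing notes name bcl2fastq 2.20, Trimmomatic 0.36, STAR 2.5.2b, featureCounts and mm10. The authors deposited raw counts per exonic part of Ensembl genes, 1 table per library; whether strand was used is not given in the sources used here. Parts were summed per gene. Of 425461 parts, 33309 stood under joined identifiers; 27968 of these went to the only gene of the entry whose GENCODE M21 exons they overlap, and 5341 were left out. Genes passed filterByExpr (minimum count 10, minimum total 15) and were tested by the quasi-likelihood test of edgeR 4.0.16 with TMM and no covariates (R 4.3.3), with calls made at an adjusted p under 0.05 together with an absolute log2 fold change above 1; the code was tested on simulated data. CPM uses the TMM-scaled library size. Pseudogene copies were searched with blastn 2.17.0. Alternatives were DESeq2 1.42.0 size factors and Wald test, limma 3.58.1 voom, other filters, library sizes without mitochondrial and rRNA genes, the replicate block, each library left out, joined identifiers kept, parts without an opposite-strand neighbour, the longest part alone, shares of the members' sum and, added after seeing the data, the length of the principal transcript (APPRIS, else the longest coding one). Named are all members past the threshold, the 8 with the smallest unadjusted p, the 5 highest and 5 lowest per length, the nuclear core subunits, Ndufaf1 to Ndufaf8, related and untested Nduf genes, all mt-Nd genes, and from every other list members past the threshold or else the 2 with the smallest p; other members named, and the motifs, were chosen after their values were seen. Members and lists were chosen with earlier results of these data known. The values of 1 member are not reported here singly; counts, medians and sums over the members include it.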

Additional observations from a re-analysis of the deposited data

How the results depend on the processing

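Under all 16 alternatives that gave a test of all genes, 0 complex I members were called. Over all genes, calls at an adjusted p under 0.05 and a log2 fold change beyond 1 numbered 0 in the filtered edgeR fit. Without a filter beforehand, 30967 genes with a count entered the fit. Calls then numbered 9 higher and 40 lower by DESeq2 and 5 higher and 25 lower by edgeR. The default filters of DESeq2 itself were left on, and the cause of these differences was not tested. Numbers of the replicates did not pair the libraries (correlations of -0.08, 0.07 and 0.04), and with the replicate block 0 genes were called, with a median log2 fold change of the members of 0.05. The median over members ranged from -0.20 (without delipidated 1) to 0.18 (without control 2) when each library was left out, and the log2 ratio of the summed level from -0.12 to 0.01 around -0.08. Of the 40 tested members, 16 kept the sign of their log2 fold change under every alternative that tested them, 7 above and 9 below 0, and 24 changed sign under at least 1. Ndufaf2, Ndufa2, Ndufb11, Ndufs8 and Ndufaf5, the 5 highest per summed part length with 36.0% of the sum, held 51.0% on the longest part alone and 26.9% over the length of the principal transcript, an alternative chosen after seeing the data. The longest parts of Ndufa2 and Ndufb11 are shared with a gene on the opposite strand. The 5 highest on each of these scales held 57.1% and 30.2%, and 4 and 3 of the 5 genes were the same. The order of levels had a Spearman correlation with the main order of 0.67 and 0.85. When each library was left out, the share ranged from 35.2% to 36.8%. SEs of single members ranged from 0.29 to 1.95 on the log2 scale.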

Other observations

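Complex II, which feeds electrons from succinate, had 8 tested genes with a median log2 fold change of 0.47, 6 above 0 and 2 below, and 0 calls. Sdhaf2, an assembly factor that attaches FAD, was at 4.05, 2.42 and 3.50 CPM in control and 2.47, 9.40 and 7.55 CPM in delipidated embryos (log2 fold change 0.96, SE 0.74). Sdhaf1 was at 3.88, 2.48 and 1.75 CPM in control and 0, 0.553 and 1.69 CPM in delipidated embryos, without overlap (log2 fold change -1.85, SE 1.48). Delipidated 3 lay just below control 3. In the other direction, Sdhaf3 was at 0, 1.09 and 0.304 CPM in control and 1.58, 2.33 and 1.41 CPM in delipidated embryos. It too was without overlap, at low counts (log2 fold change 1.90, SE 1.56). Complex III had 9 tested genes with a median of 0.10, 5 above 0 and 4 below, and 0 calls. Its subunit Uqcr10 was at 8.02, 9.25 and 2.51 CPM in control and 16.8, 15.1 and 12.6 CPM in delipidated embryos, without overlap (log2 fold change 1.17, SE 0.57). Uqcrq was at 6.16, 5.38 and 5.63 CPM in control and 6.57, 24.2 and 6.28 CPM in delipidated embryos, also without overlap (log2 fold change 1.11, SE 0.64), with delipidated 2 far above the rest and the other delipidated libraries just above control 1.

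Complex IV, cytochrome c oxidase, had 10 tested genes with a median of -0.08, 5 above 0 and 5 below, and 0 calls. Cox6b1 was at 11.1, 11.4 and 16.3 CPM in control and 22.3, 16.2 and 20.2 CPM in delipidated embryos, with control 3 just above delipidated 2. Cox6a1 was at 12.9, 30.1 and 8.74 CPM in control and 9.43, 11.6 and 11.2 CPM in delipidated embryos, with control 2 the highest. Complex V, the ATP synthase, had 15 tested genes with a median of -0.12, 5 above 0 and 10 below, and 0 calls. Atp5j, a subunit of its peripheral stalk, was at 258, 265 and 253 CPM in control and 186, 163 and 195 CPM in delipidated embryos. The groups did not overlap, and the control libraries lay close together (log2 fold change -0.51, SE 0.19, edgeR adjusted p = 1.00). Atp5d, a subunit of the central stalk, was at 2.62, 6.53 and 9.73 CPM in control and 1.43, 3.38 and 2.47 CPM in delipidated embryos, with overlap through control 1.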
